A study of Mus musculus with 6 samples.

Results

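DEAD-box and DEAH-box proteins are ATP-driven RNA helicases, and their mouse genes carry symbols that begin with Ddx and Dhx. The members were all probe sets (groups of short probes for one transcript) whose platform annotation gave a single symbol of this form, with the Y-linked Ddx3y left out. They were 113 of 45037 probe sets, for 51 of 18193 genes. The 35 Ddx genes had 83 probe sets and the 16 Dhx genes had 30. A single probe set represented 17 genes, and the other 34 genes had up to 6 each. Where a gene is given by 1 value, it is that of its brightest probe set, the one with the highest mean over the arrays. Membership followed the symbol alone, and 1 member, Ddx11, is known as a DNA helicase of sister chromatid cohesion.

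The cells were mouse embryonic stem (ES) cells of the line EBRTcH3, with a 3xFLAG-tagged coding sequence of human WBSCR1 inserted at ROSA26 behind a promoter that tetracycline represses. Induced cells had been without tetracycline for 24 h and control cells were kept with it, so all cells carried the transgene and the removal of tetracycline and the transgene cannot be told apart. Both conditions were measured in 3 separately derived clones, A3, A1 and A4, with 1 array for each clone and condition and 6 arrays in all. The labels name the clones as biological replicates, so the errors on induction are the spread between clones, and those of a clone difference rest on the 2 arrays of each clone, 1 for each condition. WBSCR1 is the human eIF4H, an RNA-binding partner of the DEAD-box helicase eIF4A, and the comparison asks whether other helicases changed when it was switched on.

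DEAD-box helicases open short RNA duplexes and remodel RNA-protein complexes without moving far along the strand, whereas DEAH-box helicases pull on single strands from one end. Between them they act at nearly every step of an RNA's life: assembly and catalysis of the spliceosome, processing of ribosomal RNA, export through the nuclear pore, initiation of translation, storage and decay, and detection of viral RNA. Vasa, the product of Ddx4, is a classical marker of germ cells.

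The 8 ES cell markers examined, Pou5f1 and Nanog among them, read 10.6 to 14.1 log2 in all arrays. Of the 7 fibroblast and feeder markers, 6 read at most 5.16 log2 and Thy1 read 6.88 to 7.37. Clone A3 differed from the others in further lists. Otx2 was higher (2.88 ± 0.16 log2, SE, adjusted p = 0.000164 by limma). Of 6 primitive endoderm markers 5 were called lower, and of 8 germ cell genes 4 were called lower and 1 higher. Of 5 primed epiblast genes 2 were called higher. Over all probe sets 5.68% were called lower in A3 and 3.89% higher. The 18S ribosomal RNA control probe sets, a sign of carried-over ribosomal RNA, averaged 7.27 and 6.61 log2 in the induced and control arrays of A3, against 7.03 and 5.66 in A1 and 5.99 and 5.99 in A4. The ratio of 3' to 5' signal of Gapdh stayed between -0.0073 and 0.10 log2, and that of beta-actin was 0.29 and 0.32 log2 in A3, against 0.45 and 0.40 in A1 and 0.43 and 0.42 in A4. Array medians were 5.11 to 5.18 log2. In such bulk samples fewer cells of a type and less RNA for each cell cannot be told apart. The part of these differences in the results below was not tested.

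The promoters give a first view of the group. RefSeq (assembly GRCm38.p6) start-site windows were matched for 45 of the 51 genes, 56 windows in all, and the 250 bases before each start were read. They held a median of 18.5 CpG dinucleotides, against 6 over all 32851 windows, and 41 of 56 had at least 15 (73.2%, against 27.3% of all windows). The ETS-type motif CCGGAAG, on either strand, lay in 17 of the 56 windows (30.4%), those of 16 genes, against 6.91% of all windows. All 17 were among the 41 with at least 15 CpG (41.5%, against 15.5% of all windows so rich). The CCAAT box (CCAAT, either strand) lay in 42.9% of the windows, against 33.8% of all, and the TATA box (TATAAA, either strand) in 7.14%, against 12.4%. Among CpG-rich windows the shares were 41.5%, against 31.3%, for the CCAAT box and 2.44%, against 3.099%, for the TATA box. The CRE motif TGACGTCA, a palindrome, lay in 4 of 56 (7.14%, against 1.55%), the NRF1-type motif GCGCATGC, on either strand, in 6 (10.7%, against 2.26%), and the palindromic E-box CACGTG in 6 (10.7%, against 6.02%). Among CpG-rich windows these were 9.76%, against 3.39%, for CRE, 12.2%, against 5.42%, for NRF1 and 12.2%, against 9.81%, for the E-box. The GC box (GGGCGG, either strand) lay in 55.4% of the windows, against 32.7% of all, and in 28 of the 41 CpG-rich ones (68.3%, against 75.9%). A match describes the letters only and marks no binding.

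The 7 genes with the ETS motif shown here are either among those lower in A3 or in the pairs of related genes described further on, with the motif in capitals on the gene's own strand and up to 12 bases on either side.
Ddx5 (chr11:106789003-106789033, minus strand): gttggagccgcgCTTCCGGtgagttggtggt
Ddx17 (chr15:79546952-79546982, minus strand): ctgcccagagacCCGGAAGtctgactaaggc
Ddx50 (chr10:62651219-62651243, minus strand): gaggtgcgtggcCCGGAAGtgacgc
Ddx39b (chr17:35241710-35241740, plus strand): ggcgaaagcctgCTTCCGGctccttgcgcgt
Dhx9 (chr1:153487738-153487768, minus strand): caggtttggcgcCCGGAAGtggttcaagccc
Dhx30 (chr9:110117662-110117692, minus strand): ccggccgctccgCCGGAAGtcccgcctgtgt
Dhx16 (chr17:35879752-35879777, plus strand): gtcgatccctggCCGGAAGagcgcga
The motif began 13 bases before the start in Ddx50, 14 in Dhx16 and 24 in Ddx39b, and farther away, 64 to 229 bases, in the other 4.

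The 2 genes with the clearest differences between clones, Ddx19b and Ddx4, have unlike upstream sequences. In the Ddx4 window its 31 CpG dinucleotides are in capitals.
Ddx4 (chr13:112652311-112652560, minus strand): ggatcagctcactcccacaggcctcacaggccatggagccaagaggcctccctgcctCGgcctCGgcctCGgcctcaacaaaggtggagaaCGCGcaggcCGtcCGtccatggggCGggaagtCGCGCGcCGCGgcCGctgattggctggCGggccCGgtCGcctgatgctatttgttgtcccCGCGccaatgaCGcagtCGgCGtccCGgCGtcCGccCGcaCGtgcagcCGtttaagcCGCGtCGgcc
Ddx19b has 2 annotated starts. The window of its farther upstream one is shown with the CCAAT boxes of both strands in capitals, and it held the NRF1-type motif and 5 CpG dinucleotides, against 16 in the window of the other start.
Ddx19b (chr8:111031752-111032001, minus strand): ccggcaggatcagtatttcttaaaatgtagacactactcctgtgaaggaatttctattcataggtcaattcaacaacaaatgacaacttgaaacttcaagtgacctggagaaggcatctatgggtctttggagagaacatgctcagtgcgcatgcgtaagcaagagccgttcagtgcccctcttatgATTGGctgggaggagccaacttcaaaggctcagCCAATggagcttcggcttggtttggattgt
The windows of the other germ line members held 34 (Ddx25) and 20 (Ddx43) CpG dinucleotides.

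Most of the family read at least 6 log2 in these ES cells, 47 of the 51 genes, against 9738 of all 18193. No detection call was made. Of the 51 genes, 38 read at least 8 log2 on their brightest probe set and 10 read at least 11 log2, while 2 stayed under 5. Ddx23, at 5.04, lay under the array medians. All genes were not counted at these further levels. A signal depends on its probes as well as on the transcript, so the signals are not ranked between genes. The 3 mRNA export genes read 9.10 to 12.6 log2, the 10 splicing genes 5.04 to 12.4, the 16 genes of ribosome biogenesis 5.76 to 11.1, and the 4 of transcription and small RNA processing 10.3 to 12.2. The 6 genes of translation and mRNA fate read 6.82 to 12.1 log2. The 3 germ line genes read 6.41 to 7.22 log2. Among the sensors of viral RNA, Ddx58 (RIG-I) read 9.08 log2 on average, whereas Dhx58 (LGP2) read 3.82, near the lower quartile of all probe sets (3.72), and the interferon-inducible Ddx60 read 2.71, below it. Each gene varied little over the arrays: the range was under 0.5 log2 for 38 genes, with a median of 0.34, and over 1 log2 for Ddx19b and Ddx4 only.

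**Figure D1:**
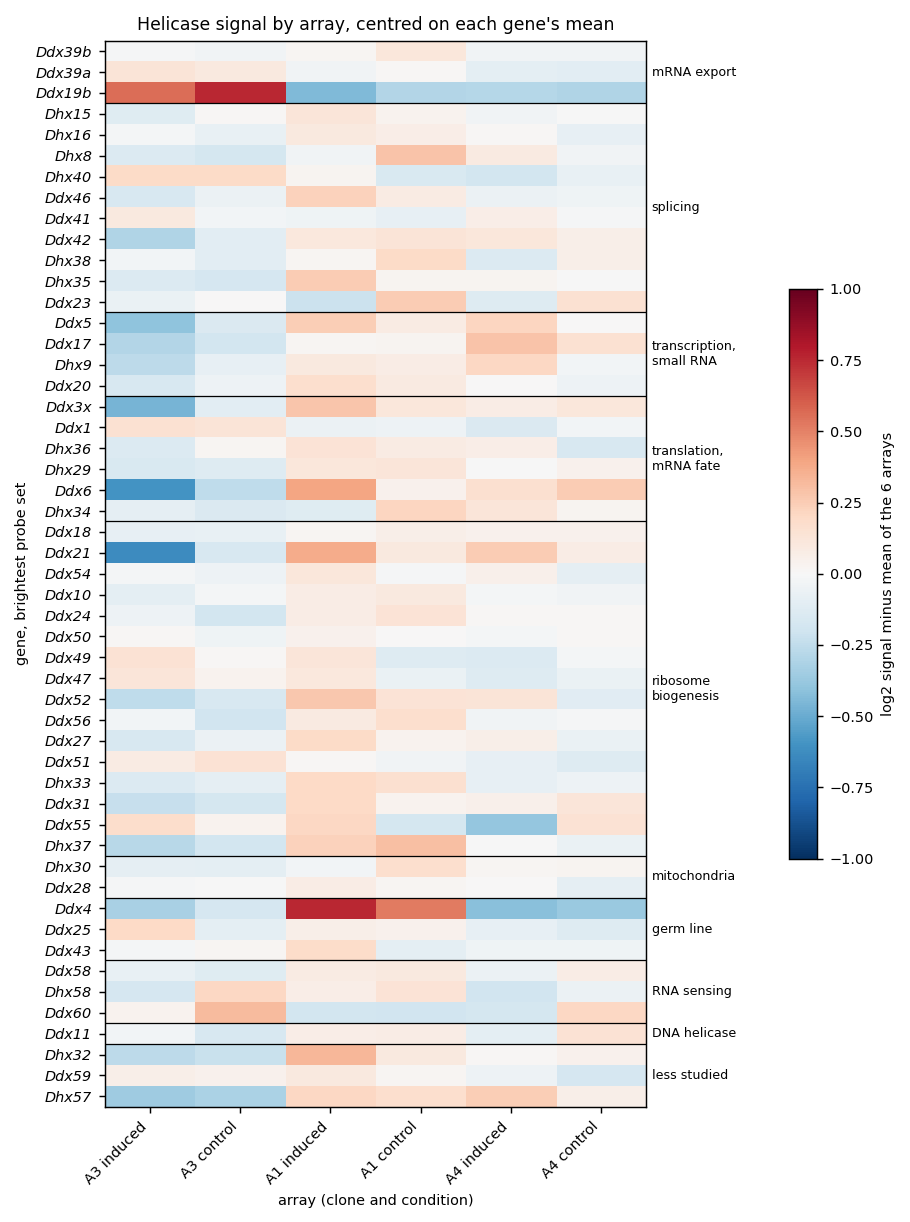
Log2 signal of the brightest probe set of each of the 51 genes (rows, grouped by role) in the 6 arrays (columns, clone and condition), with each gene's mean over the arrays subtracted (colour). Ddx19b stands out in both A3 arrays and Ddx4 in both A1 arrays, and most other rows stay within 0.5 log2.

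On induction no member passed the test. In limma, 0 of 113 member probe sets were called at an adjusted p under 0.05, and 0 of all 45037 (percent called 0), with a smallest adjusted p of 0.999942 among the members. At an unadjusted p under 0.05 there was 1 member (0.885%), against 676 of all probe sets (1.501%). The differences between induced and control arrays ran from -0.28 to 0.12 log2 over the 51 genes, with 27 higher and 24 lower. Over all member probe sets the median was 0.019 log2, against -0.0031 for all probe sets. The 95% interval lay within 0.5 log2 of 0 for 43 of the 51 genes, so for these a change beyond that size in either direction lies outside the interval. The transgene itself could not be read from these values, so its level on these arrays stands unmeasured beside the 0 calls. The paper reports that induction of the transgene was verified in its clones by real-time RT-PCR. The half-width of the interval ran from 0.20 to 0.82 log2, widest for the genes that differed between clones.

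The genes with the smallest p were those of several roles. Ddx23, the U5 snRNP helicase of spliceosome activation, was the member at an unadjusted p under 0.05. It read 4.97, 4.82 and 4.91 log2 in induced A3, A1 and A4, against 5.04, 5.29 and 5.19 in their controls, which left the groups apart but at a dim signal. The difference was -0.28 ± 0.10 log2 (SE, n = 3 each, unadjusted p = 0.0298, adjusted p = 0.999942 in limma), and its other probe set gave -0.17 ± 0.15. The viral RNA sensors Dhx58 and Ddx60 differed by -0.19 ± 0.12 and -0.22 ± 0.15 log2 at their dim signals. On the positive side stood Ddx54, a nucleolar helicase (0.10 ± 0.09 log2), the testis helicase Ddx25 (0.12 ± 0.11) and Ddx41, which joins the spliceosome (0.08 ± 0.09). None of these differences passed after adjustment, and with arrays or clones left out all but that of Ddx54 moved by over 1.5 times: Ddx25 ran from 0.030 (without clone A3) to 0.19 (without induced A4), Ddx60 from -0.37 (without control A1) to -0.12 (without control A3), and Dhx58 from -0.27 (without induced A1) to -0.10 (without clone A3). Ddx23 was -0.18 without clone A1 and Ddx41 was 0.055 without induced A3. The other probe sets of Dhx58 gave 0.05 and 0.03 log2 on induction with all arrays. That of Ddx60 gave -0.002, and those of Ddx54 gave -0.01 and -0.02. The directions given for these genes are thus those of their brightest probe sets only.

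Read clone by clone, the small changes pointed in different directions. The median change of the member probe sets was -0.039 log2 in A3, 0.037 in A1 and 0.013 in A4, against 0.0098, -0.019 and -0.0078 for all probe sets. On induction 21 genes were higher in A3, 31 in A1 and 25 in A4. Only 9 of 51 genes moved the same way in all 3 clones (17.6%, against 21.2% of all genes). The largest change of a gene's brightest probe set was that of Ddx55, a helicase of the large ribosomal subunit's assembly, with -0.53 log2 in A4, beside 0.13 in A3 and 0.38 in A1. Ddx21, the nucleolar helicase that also acts on RNA polymerase II genes, read -0.47 in A3 but 0.27 in A1 and 0.18 in A4.

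**Figure D2:**
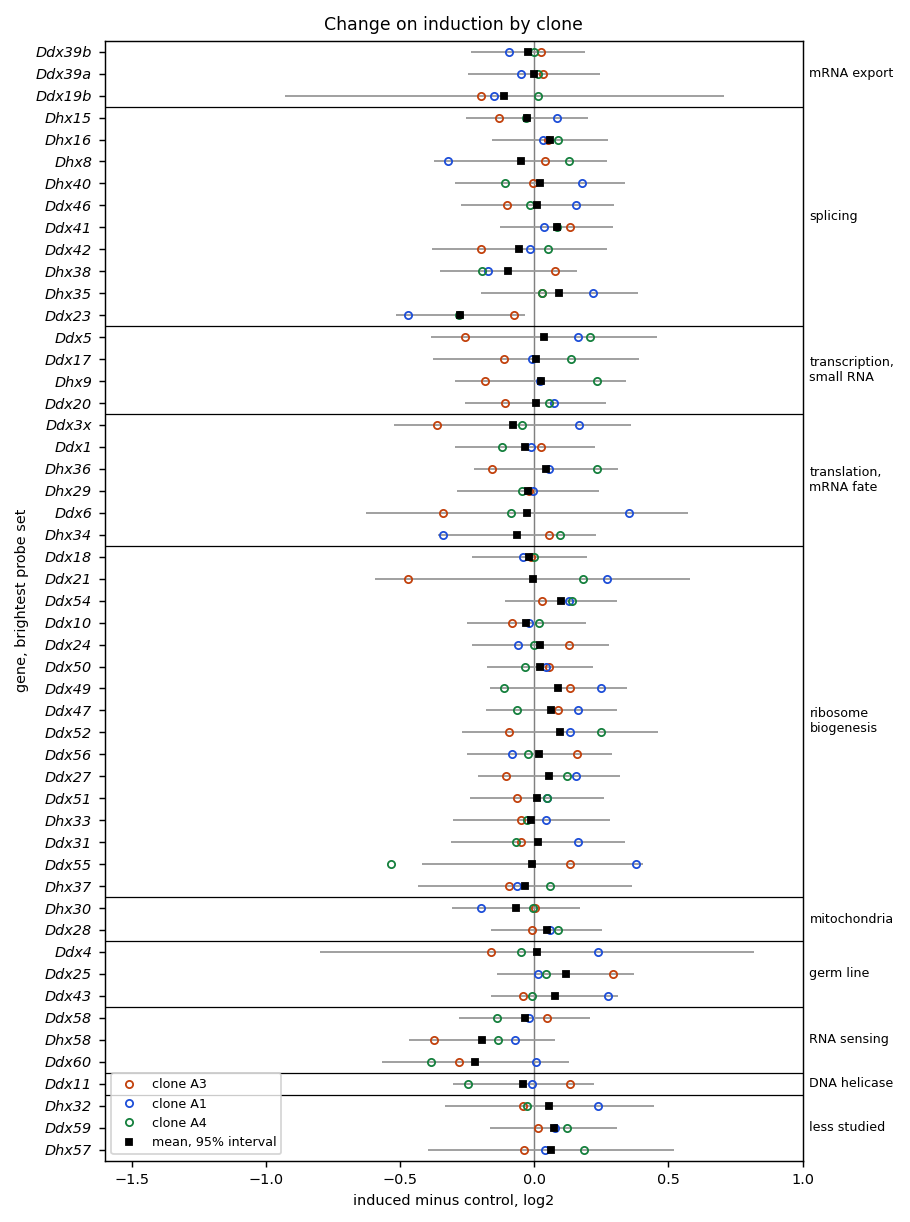
Log2 difference between the induced and the control array (horizontal axis) for the brightest probe set of each gene (rows, by role), with an open circle for each clone, a black square for the average and a grey line for its 95% interval in limma. The averages run from -0.28 to 0.12 log2, and the clones scatter to both sides of 0.

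One gene stood apart within clones. Ddx6, which represses translation and recruits mRNAs to decapping and P-bodies, has 4 probe sets here. The probe set 1424598_at read 6.86, 8.40 and 6.81 log2 in induced A3, A1 and A4, against 7.29, 6.94 and 8.14 in their controls. The probe set 1439122_at read 6.57, 8.16 and 6.43 in induced A3, A1 and A4, against 6.88, 6.46 and 8.25 in their controls. Both were thus high in induced A1 and in control A4 and low in the other 4 arrays. Their changes on induction were 1.46 and 1.71 log2 in A1, -1.33 and -1.81 in A4, and -0.43 and -0.31 in A3. The gene's brightest probe set, 1434697_at, read 7.68, 8.68 and 8.44 log2 in induced A3, A1 and A4, against 8.03, 8.33 and 8.53 in their controls, without that pattern. The fourth, 1447789_x_at, was dim (2.73 log2 on average). Over all probe sets 63 (0.14%) showed this opposition with a size of at least 1 log2 in both clones, and the 2 Ddx6 probe sets were the members among them. With a size of 0.5 log2 there were 250 (0.555%), and 1 member joined, a probe set of the G-quadruplex helicase Dhx36 (0.79 in A1 and -0.59 in A4, with -0.14 in A3), while its other 2 probe sets changed by 0.05 and 0.19 in A1 and by 0.23 and 0.11 in A4. With 1 array for each clone and condition these opposite changes have no test.

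**Figure D3:**
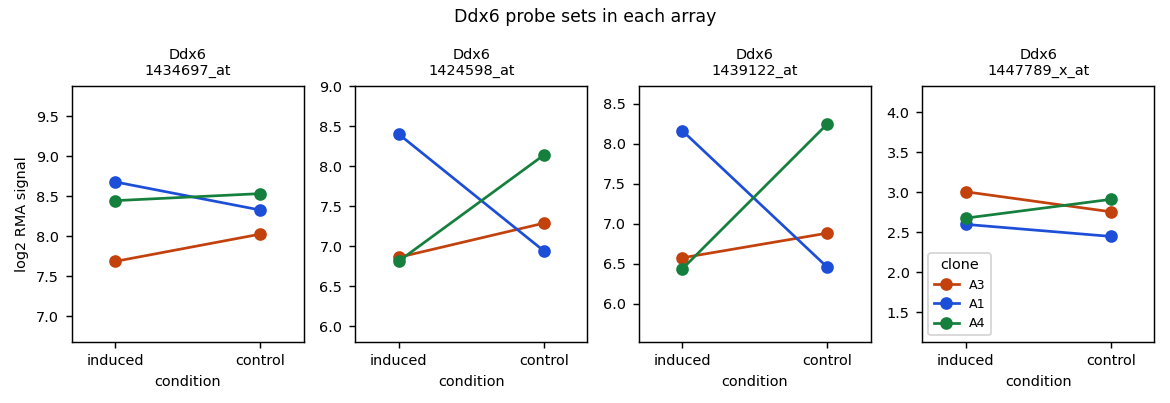
Log2 signal of the 4 Ddx6 probe sets (panels, brightest at the left) in the induced and control array of each clone, with lines joining the arrays of a clone. In the 2 middle panels the lines of A1 and A4 cross, with induced A1 and control A4 at 8.14 to 8.40 log2, while the outer panels show no crossing of that size.

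Between clones the family differed at 8 of 113 probe sets (7.08%, of 6 genes) by limma's F test at an adjusted p under 0.05, beside 5.54% of all probe sets. An unadjusted p under 0.05 was given by 20.4% of the members and 19.3% of all probe sets. The share of members that differed was thus near that of all probe sets. Fewer members passed the F test in each fit without an array, except that without control A3. Counts over all probe sets were not made for these fits. The 8 called with all arrays belonged to Ddx genes, which hold 83 of the 113 member probe sets. Of these 8, 3 belonged to Ddx19b and 1 each to Ddx4, Ddx5, Ddx27, Ddx46 and Ddx50. Where A3 was set against the mean of A1 and A4, 3 member probe sets were called higher (2.65%, beside 3.89% of all) and 10 lower (8.85%, beside 5.68% of all). Between A1 and A4, 0 members were called, beside 8 of all probe sets (0.0178%), and 3 members had an unadjusted p under 0.05 (2.65%, against 4.34% of all).

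Ddx19b was higher in A3 on each of its 3 probe sets. It encodes Dbp5, the helicase that strips export factors from mRNAs on the cytoplasmic face of the nuclear pore. The brightest probe set, 1424590_at, read 9.66 log2 in induced and 9.86 in control A3 cells, against 8.66 and 8.81 in A1 and 8.81 and 8.80 in A4. The difference was 0.99 ± 0.10 log2 (SE, adjusted p = 0.00167 in limma), 1.98 times the level of the other clones. The dimmer ones, 1425205_at and 1425203_at, differed by 1.32 ± 0.12 and 1.20 ± 0.10 log2. Both A3 arrays lay above all 4 others on all 3 probe sets, and A1 and A4 differed by 0.07 log2 or less. Its change on induction was -0.20 log2 in A3, -0.15 in A1 and 0.015 in A4. The call stood on all 3 probe sets whichever array was left out. The adjacent and nearly identical gene Ddx19a had no probe set of a single symbol here, so signal from it on these probes was not tested. Among the 12 measured genes nearest to Ddx19b on chromosome 8, 1 was called in A3, Exosc6 of the RNA exosome (0.74 ± 0.17 log2 higher at a dim 4.74 log2). Over all probe sets 3.89% were called higher in A3.

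Ddx4 read highest in A1, with 7.98 log2 in induced and 7.74 in control A1 cells, against 6.80 and 6.85 in A4 and 6.89 and 7.05 in A3. The 6 primitive endoderm markers also averaged highest in A1, with 5.91 and 5.85 log2, against 5.52 and 5.39 in A4 and 5.02 and 4.90 in A3, and their part in this difference was not tested. Its F test was passed (adjusted p = 0.00906 in limma). A1 exceeded A4 by 1.03 ± 0.13 log2, 2.04 times, although that contrast by itself was not called after adjustment over all probe sets (adjusted p = 0.232). Without the induced A1 array the F test was no longer passed (adjusted p = 0.0954). Its changes on induction were -0.16 log2 in A3, 0.24 in A1 and -0.05 in A4, smaller than the gap between A1 and the others. The other germ line members did not share the pattern. Ddx25 read 7.18 log2 in induced and 6.89 in control A3 cells, 7.04 and 7.03 in A1 and 6.90 and 6.85 in A4. Ddx43 read 6.39 and 6.43 in A3, 6.596 and 6.32 in A1 and 6.37 and 6.38 in A4, and neither was called (F adjusted p = 0.664 and 0.915).

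Of the 8 germ cell genes examined outside the family, 4 were called lower in A3 and 1 higher. Dazl, an RNA-binding protein of germ cells, was lower (-1.15 ± 0.13 log2), as was Mael of the piRNA pathway (-1.63 ± 0.11). So were the PIWI protein Piwil2 (-1.22 ± 0.11) and Taf7l (-0.45 ± 0.10), whereas Sycp3 of the synaptonemal complex was higher (0.63 ± 0.13). Sycp1 (-0.43 ± 0.12), Tex101 (-0.16 ± 0.15) and Tdrd1 (0.04 ± 0.15) were not called. For Ddx4 the same contrast gave -0.37 ± 0.11 log2 (adjusted p = 0.0903). Of the 12 measured genes nearest to Ddx4 on chromosome 13, 1 was called by the F test, Ccno, a cyclin-like protein (adjusted p = 0.0304), which was 0.42 log2 higher in A1 than in A4. Over all genes, with 1 probe set each, the F test called 6.84%.

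**Figure D4:**
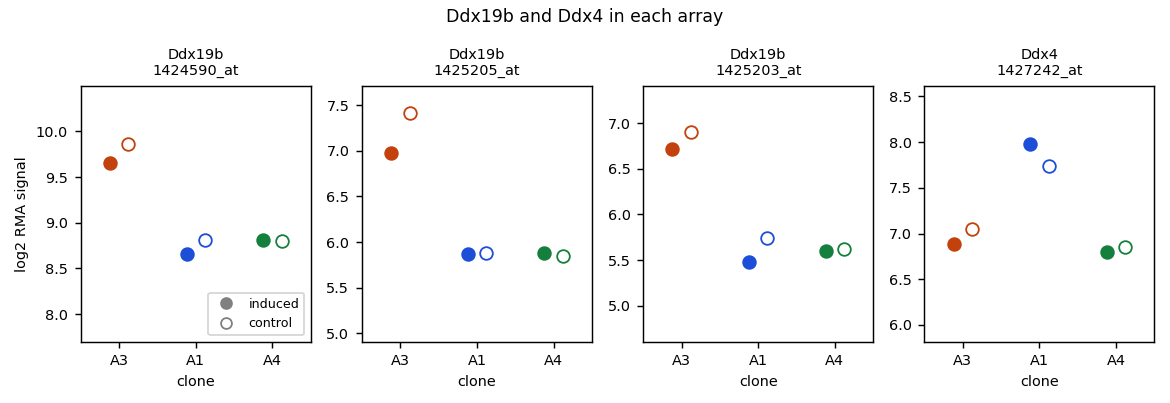
Log2 signal of the 3 Ddx19b probe sets and of Ddx4 (panels) in each clone, filled circles for induced and open circles for control arrays. Both A3 arrays lie above the other 4 for Ddx19b, and both A1 arrays lie above the other 4 for Ddx4.

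Most of the rest of the family leaned lower in A3. Of the 51 genes, 38 were lower in A3 than in the average of the other clones, with a median of -0.14 log2, against 42.3% of all genes and a median of 0.038. Among the 47 members that read at least 6 log2, 36 were lower (76.6%, median -0.14), against 52.1% of the 9738 genes of that brightness (median -0.014). A smaller lean lay between the other clones. For A1 minus A4 these 47 members had a median of 0.093 log2, against 0.029 for all genes of that brightness. A shared lean was thus not particular to A3. The 10 probe sets called lower in A3 were for 9 genes, 8 of them with roles in splicing, ribosome assembly, transcription or translation and mRNA fate, beside the less studied Dhx57. In that order these roles hold 10, 16, 4 and 6 of the 51 genes, most of the family.

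Among the transcription co-regulators, Ddx5 and Ddx17, which also act in microRNA processing with Drosha, were both lower. For Ddx5 the probe set 1423645_a_at read 10.69 log2 in induced and 10.84 in control A3 cells, against 11.41 and 11.20 in A1 and 11.45 and 11.41 in A4 (-0.60 ± 0.11, adjusted p = 0.0141 in limma). Both A3 arrays lay under the other 4. The 3 further bright Ddx5 probe sets differed by -0.41 to -0.51 without passing, and the 2 dimmest by 0.15 and 0.24. For Ddx17 the probe set 1452155_a_at read 11.37 and 11.38 in A3, against 11.78 and 11.82 in A1 and 11.96 and 11.92 in A4 (-0.49 ± 0.10, adjusted p = 0.0190), and its brightest gave -0.36 ± 0.10 without passing. Ddx17 lies on chromosome 15, where genes of at least 6 log2 had a median of -0.28 log2 in A3, whereas the median of each other chromosome lay between -0.047 and 0.042. Of the 12 measured genes nearest to Ddx17, 6 were called lower in A3, beside 5.68% of all probe sets. Ddx23 is the other member on that chromosome (-0.05 ± 0.11). Dhx9 (RNA helicase A, -0.26 ± 0.12) and Ddx20 (Gemin3 of the SMN complex, -0.15 ± 0.10) were not called.

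In translation and mRNA fate, Ddx6 and Ddx3x were called. The brightest Ddx6 probe set was lower in A3 (-0.64 ± 0.14 log2, adjusted p = 0.0324), with both A3 arrays under the other 4. Without the induced A3 array it gave -0.40 (adjusted p = 0.311 in limma), and the call was lost in 4 of the 6 fits without an array. Ddx3x, which helps ribosomes through structured 5' leaders, differed by -0.40 ± 0.10 on the probe set called (1423042_at, adjusted p = 0.0477), and by -0.43 ± 0.13 and -0.21 ± 0.10 on the others. Its brightest probe set read 11.67 log2 in induced and 12.03 in control A3 cells, against 12.41 and 12.25 in A1 and 12.21 and 12.25 in A4. The A3 arrays lay lowest, by a margin that did not pass the adjusted threshold. Ddx1, a subunit of the tRNA ligase complex, pointed the other way (0.21 ± 0.10, not called).

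Among the splicing helicases, Ddx46 (Prp5), which prepares the U2 snRNP for the branch site, was called on 2 of its 5 probe sets (-0.70 ± 0.10 and -0.53 ± 0.12 log2). Without the induced A3 array the second, 1424571_at, gave -0.32 (adjusted p = 0.326 in limma), and its call was lost in 4 of the 6 fits without an array. The first, 1455103_at, read 8.35 and 8.46 in A3, against 9.08 and 9.17 in A1 and 9.12 and 9.07 in A4. Its brightest probe set gave -0.16 ± 0.10, and another gave 0.22 ± 0.13, so the probe sets of this gene did not move together. No other splicing member was called, with values between -0.31 (Ddx42, also of the U2 snRNP) and 0.28 (Dhx40) on the brightest probe sets.

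In ribosome biogenesis 3 of 34 probe sets were called lower, beside 10 of 113 over the family (8.85%) and 5.68% of all probe sets. A dimmer probe set of Ddx27, which takes part in rRNA processing, differed by -0.78 ± 0.10 log2, with 6.14 and 6.19 log2 in A3, against 7.08 and 6.87 in A1 and 6.92 and 6.91 in A4, while the brightest gave -0.16 ± 0.11. A dim probe set of Ddx50 differed by -0.88 ± 0.14 at a mean of 4.16 log2, while the brightest, at 9.91 log2, gave -0.02 ± 0.10. Ddx52, whose yeast counterpart Rok1 acts on the small subunit, differed by -0.42 ± 0.10 on the probe set called and by -0.31 ± 0.11 on the other. Of these 3 genes, Ddx52 was thus the one whose probe sets had like values. Dhx37, which releases the U3 snoRNA, gave -0.34 ± 0.10 (adjusted p = 0.0732), with 5.49 and 5.58 in A3, against 5.99 and 6.06 in A1 and 5.76 and 5.70 in A4. The less studied Dhx57 was called (-0.51 ± 0.10, adjusted p = 0.0205), with 6.70 and 6.74 in A3, against 7.27 and 7.23 in A1 and 7.31 and 7.12 in A4, and Dhx32 was not (-0.37 ± 0.11, adjusted p = 0.0769), with 8.88 and 8.92 in A3, against 9.47 and 9.24 in A1 and 9.15 and 9.18 in A4.

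**Figure D5:**
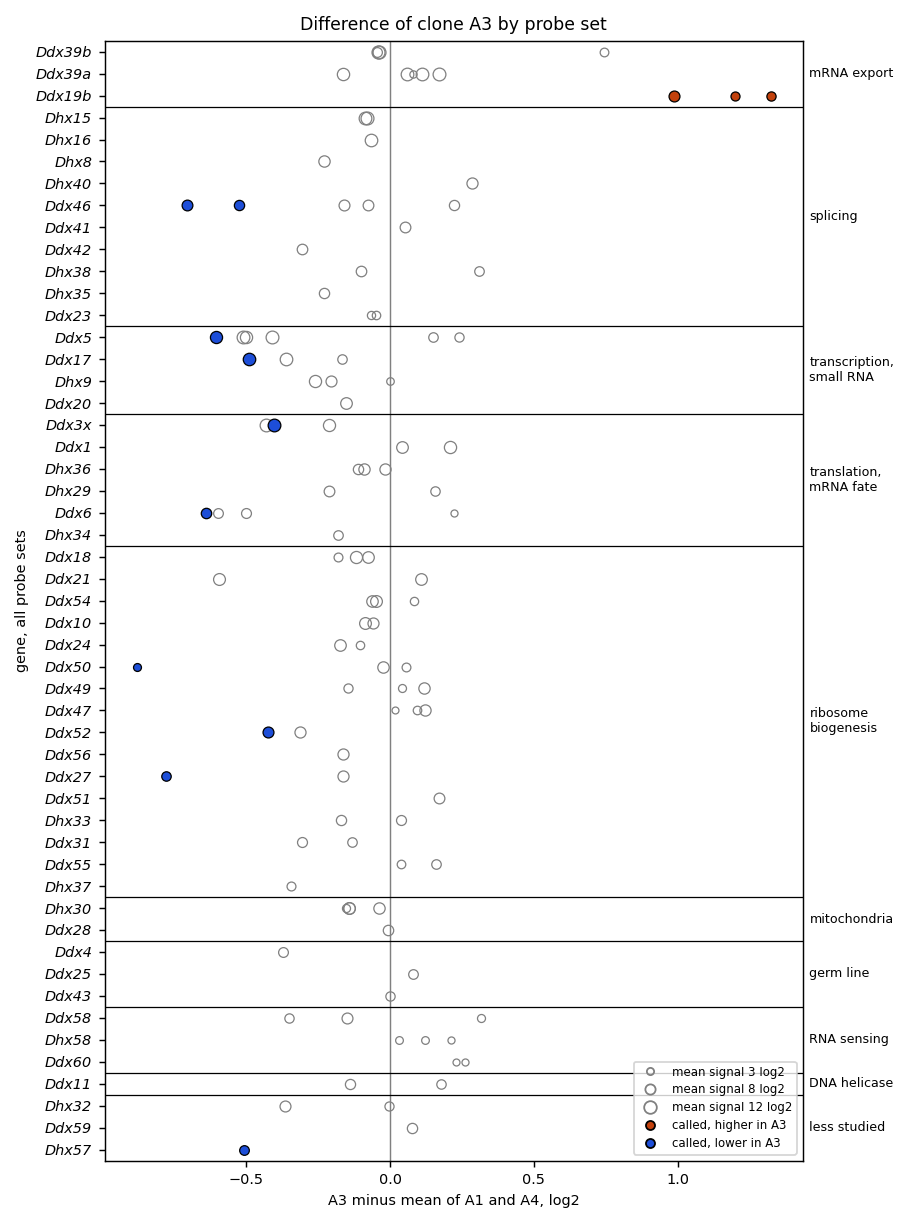
Difference of A3 from the mean of A1 and A4 (horizontal axis, log2) for all 113 probe sets, one row for each gene, with larger circles for brighter probe sets and filled circles for those called at an adjusted p under 0.05. The 3 probe sets of Ddx19b lie at 0.99 to 1.32 and the 10 called lower at -0.88 to -0.40, several of them beside unfilled circles of the same gene near 0.

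Fewer members were called lower in each fit without an array. Such fits have fewer samples, and counts over all probe sets were not made for them. The smaller counts are thus not read as particular to the helicases. Without induced A3 0 members were called lower, without induced A1 3 and without induced A4 4, against 10 with all arrays. Without a control array there were 9 (A3), 6 (A1) and 7 (A4). Several bright members were at their lowest in induced A3: Ddx21 read 10.03 log2 there and 10.50 in control A3, against 11.03 and 10.75 in A1 and 10.91 and 10.73 in A4. Its other probe set, 1448271_a_at, read 10.32 and 10.42 in A3, against 10.33 and 10.29 in A1 and 10.20 and 10.23 in A4, and did not share this. Induced A3 also had the highest 18S signal of the 6 (7.27 log2), whose part in these values was not tested.

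Pairs of related genes were followed by their log2 ratio within each array, whose size depends on the probes and of which only the variation between arrays can be read. In 5 of 13 pairs both A3 arrays lay outside the other 4. The same count was not made for pairs of other genes, so it is not read as particular to helicases. Ddx39a over Ddx39b, the paired helicases of the TREX export complex, gave -0.22 and -0.22 in induced and control A3 cells, against -0.41 and -0.46 in A1 and -0.41 and -0.43 in A4. The brightest probe sets of both genes had differed by 0.17 ± 0.10 and -0.04 ± 0.10 in A3, neither called. Ddx20 over Ddx6 gave 2.44 and 2.21 in A3, against 1.77 and 2.05 in A1 and 1.84 and 1.70 in A4. Ddx21 over Ddx50, nucleolar proteins that arose by duplication, gave 0.10 and 0.63 in A3, against 1.07 and 0.84 in A1 and 1.02 and 0.81 in A4. Dhx29, a helper of initiation on structured leaders, over Dhx57 gave 1.87 and 1.85 in A3, against 1.58 and 1.62 in A1 and 1.42 and 1.65 in A4, and Dhx15 over Dhx32 gave 3.39 and 3.48, against 3.04 and 3.19 in A1 and 3.20 and 3.20 in A4. In the other 8 pairs at least 1 A3 array lay within the range of the A1 and A4 arrays. The ratio of Ddx5 over Ddx17 was 0.25 and 0.40 in A3, against 0.58 and 0.41 in A1 and 0.29 and 0.22 in A4, so that the A1 arrays read highest. Ddx3x over Ddx4 kept the clones apart, with 4.78 and 4.98 in A3, against 4.44 and 4.51 in A1 and 5.41 and 5.40 in A4. Ddx42 over Ddx46 gave -0.68 and -0.59 in A3, against -0.66 and -0.49 in A1 and -0.37 and -0.44 in A4, and Ddx18 over Ddx10 gave 0.60 and 0.54 in A3, against 0.53 and 0.55 in A1 and 0.65 and 0.66 in A4, so that in both pairs A4 read highest. The A3 arrays gave -2.12 and -2.11 for the spliceosomal Dhx8 over Dhx16, against -2.14 to -1.78 over the A1 and A4 arrays. Dhx8 over Dhx38 gave 1.24 and 1.27 in A3, against 1.25 to 1.57, Dhx9 over Dhx30 gave 0.47 and 0.66, against 0.56 to 0.83, and Ddx58 over Dhx58 gave 5.35 and 4.92, against 5.22 to 5.39. With 2 arrays against 4 no exact test of these ratios can reach 0.05, and none was run.

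Genes that work with the helicases were read from 6 lists, with 0 called on induction in any of them and list medians between -0.024 and 0.031 log2. Between clones the background for 1 probe set a gene was 6.84% by the F test. Of 19 RNA helicases with other names 2 passed the F test: Tdrd12, a helicase of the piRNA pathway, was higher in A3 (1.69 ± 0.10 log2), and Mov10l1, of the same pathway and on chromosome 15, was lower (-1.11 ± 0.10). Tdrd12 read 9.91 and 9.89 log2 in induced and control A3 cells, against 8.38 and 8.30 in A1 and 8.152 and 8.003 in A4. Of 21 G-patch and other cofactors 1 passed, Sugp2 (-0.74 ± 0.10), and of 12 export partners 1, Poldip3 (-0.84 ± 0.12), which also lies on chromosome 15. Of the proteins known to bind the product of Ddx19b, Nup214 was called lower in A3 (-0.48 ± 0.10), as were the export factor Thoc2 (-0.45 ± 0.10) and the spliceosome partner Cwc22 (-0.61 ± 0.14). Of 24 spliceosome partners 1 passed the F test, Prpf31 (-0.49 ± 0.10), and none of 34 nucleolar factors or of 11 eIF4A helicases and cofactors did, although Tsr1 (-0.41 ± 0.10) and, on chromosome 15, Eif4b (-0.41 ± 0.10) were called lower in A3. The list medians in A3 ran from -0.084 (nucleolar factors, 24 of 34 lower) to -0.0033 (helicases with other names, 10 of 19 lower).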

How the data were processed

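The deposited values are log2 signals of Affymetrix whole-genome mouse arrays, which the authors made by robust multiarray average (RMA) in the affy package (version not given in the sources used here). Precision is limited by the small number of arrays, 6. The 64 control probe sets of 45101 were read for RNA quality only. The platform annotation gave 1 symbol for 34945 probe sets, several for 932 and none for 9160, and all 113 members were matched to a RefSeq table of assembly GRCm38.p6.

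Samples were grouped by the labels, where replicates 1, 2 and 3 are clones A1, A3 and A4. Induced and control arrays were compared in R 4.3.3 with limma 3.58.1 and no term but condition (the study's methods name a t-test and mention no clone term). Clones were compared in a fit of clone and condition by an F test and by the contrasts A3 minus the mean of A1 and A4, and A1 minus A4. Tests were two-sided, with Benjamini-Hochberg adjustment over 45037 probe sets and a threshold of 0.05. The fits were also run on simulated arrays. For induction these held no differences between clones, so they do not show what that test could detect here. Deviations from the group means correlated at 0.67 (A3), 0.314 (A1) and 0.290 (A4) between the arrays of a clone, and at 0.369 (induced A1, control A4) and 0.348 (induced A4, control A1) across clones; the pairing by clone comes from the labels. Promoter motifs were counted, and plots drawn with matplotlib 3.10.9, in Python 3.11.15. Alternatives were the clone as replicate block, other scaling, filters, weights, thresholds and leaving out arrays.

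Named were the 8 genes with the smallest F p, the 3 higher and 3 lower genes with the smallest p on induction, members with a change of 1 log2 in a clone, pairs of related genes, Ddx3x, Ddx6, the germ line genes and up to 2 genes of each partner list. Further probe sets and genes were named after their values were seen: other probe sets of those genes, probe sets called between clones, marker genes, chromosomal neighbours and Ddx55, Dhx36 and others given for contrast. The members, lists and rules were chosen with earlier results of these data known. Roles were assigned from general knowledge.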

Additional observations from a re-analysis of the deposited data

Results flagged for a closer look

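Ddx6 changed in opposite directions in the A1 and A4 clones on 2 of its 4 probe sets, by 1.46 and -1.33 log2 on the probe set 1424598_at and by 1.71 and -1.81 log2 on 1439122_at. The difference between the clones was not tested, since each clone has 1 array for each condition. With 3 arrays in a condition no array was examined as an outlier.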

How the results depend on the processing

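On induction the count of members called was 0 in the main fit and with every alternative, among them the replicate block by clone (0 called), the methods' t-test and all leave-outs. At an unadjusted p under 0.05 the methods' t-test gave 2 of 113 members, against 1096 of all 45037 probe sets. The block gave 1 member, against 1539 of all. The block changed no call. The number of member probe sets higher on induction, 68 of 113 beside 48.8% of all, was 80 with array medians subtracted (58.3% of all), 56 with arrayWeights (46.4%) and 44 to 78 without single arrays or clones (45.1 to 50.5%).

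Between clones, the count of members by the F test, 8, was 15 with eBayes trend and robust, 5 of 51 with 1 probe set for each symbol and 4 at an adjusted p under 0.01. Counts over all probe sets were not compared under these settings or those that follow. The changes in count are thus not read as particular to the helicases. For A3, the 13 calls were 6 at an adjusted p under 0.01, where the lower ones numbered 3, and with 1 probe set for each symbol the higher calls were 1. Without single arrays the F count ran from 4 (induced A3 or induced A1) to 8, the A3 calls from 3 to 13, the higher ones from 3 to 4 and the lower ones from 0 (without induced A3) to 9. The calls for A1 minus A4 stayed at 0 throughout. Of the other settings, the lower call for Ddx3x ended with arrayWeights (adjusted p = 0.0567) and that for Ddx52 with a second quantile normalization (0.0510), and both ended in each of 6 fits without an array. The lower calls for Ddx17 and Dhx57 ended in 5 of these fits, those for Ddx5 and Ddx50 in 2. The F call for Ddx4 ended without induced A1 (adjusted p over the 6 fits from 0.0175 to 0.0954). Signs were examined for the probe sets called in A3, for Ddx4 and for the genes named by their p on induction, and none changed. The signs of other named values were not examined. Fits without an array have fewer samples.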
